A study of Mus musculus with 12 samples.

Results

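Protease inhibitors of the serpin, cystatin and CTLA-2 families are described here in CD8 T cells from spleen and from a melanoma. The genes were 10 named inhibitors of serine and cysteine proteases: Serpinb1a, Serpinb6a, Serpinb6b, Serpinb9, Serpina3g, Serpine2, Cst7, Cst3, Ctla2a and Ctla2b. They were chosen by name, with earlier results of these data known, and 8 of them were measured, out of 18193 genes in all. Their counts are therefore no independent test against the shares of all genes given below. Serpina3g and Serpine2 were not analysed here. Each gene is read from 1 probe set, the brightest on average of those that name only that gene.

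The study profiled sorted CD8 T cells on 12 Affymetrix arrays. Mice of all groups were labelled as strain C57bl/c and 6 to 8 weeks old, with no genetic change given. Naive cells came from the spleens of mice without tumours (n = 5). Tumour-infiltrating lymphocytes (TIL) came from flank tumours of B16F10-GP, a mouse skin melanoma line, harvested between day 17 and day 19 after injection. They were sorted as PD-1+ Tim-3- 2B4- cells, labelled stem-like (n = 3), and as PD-1+ Tim-3+ 2B4+ cells, labelled exhausted (n = 4). PD-1, Tim-3 and 2B4 are inhibitory or activation-linked receptors at the T cell surface. The TIL groups therefore differ from naive cells in tissue, tumour digestion and antigen experience at once, and these cannot be told apart. Neither pooling of mice nor separate animals per array is stated in the labels, so p-values measure the spread between these samples, which may be technical.

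Cytotoxic T cells store serine proteases called granzymes in granules, where cathepsin C, a cysteine protease, trims them into active form. Serpins inhibit by offering a loop that the protease cuts, after which the serpin snaps shut and holds the protease in a covalent complex. Clade B serpins lack a classical signal peptide and work mainly in the cytosol and nucleus, so they can meet granule proteases that leak into the cell that made them. Cystatins block papain-like cysteine cathepsins by wedging into the active site, and CTLA-2 proteins resemble the inhibitory propeptide of such cathepsins.

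All 8 measured inhibitors were higher in both TIL groups than in naive cells, and only Serpinb9 and Cst7 passed the test between the TIL groups, the Cst7 call being lost without 1 array. Values are log2 of the deposited intensity, and changes are differences of mean log2 values ± SE from 1 limma fit over all genes and arrays. A gene passed when its Benjamini-Hochberg adjusted p was below 0.05. In Tim-3- TIL against naive cells, 8 of 8 members were higher, where 16.1% of all genes were higher and 18.3% lower. In Tim-3+ TIL against naive cells it was again 8 of 8, where 20.1% of all genes were higher and 21.4% lower. In Tim-3+ against Tim-3- TIL, 2 of 8 were higher and 0 lower by limma, with the same counts at an unadjusted p below 0.05, where 7.77% of all genes were higher and 5.77% lower.

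The single arrays were also compared, without a model. Every TIL array lay above every naive array for 8 of 8 members in both TIL groups. Over all genes this held for 16.1% in Tim-3- and 18.4% in Tim-3+ TIL. Tim-3+ arrays all lay above Tim-3- arrays for 2 of 8 members, Serpinb9 and Cst7, and for 13.1% of all genes. The median log2 change of the members was 2.43 in Tim-3- and 2.87 in Tim-3+ TIL against naive, where the medians of all genes were -0.063 and -0.065. Both comparisons use the same naive arrays. The medians between the TIL groups were 0.23 for the members and 0.011 for all genes. In sorted bulk samples, fewer cells expressing a gene and less RNA per cell cannot be told apart.

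**Figure D1:**
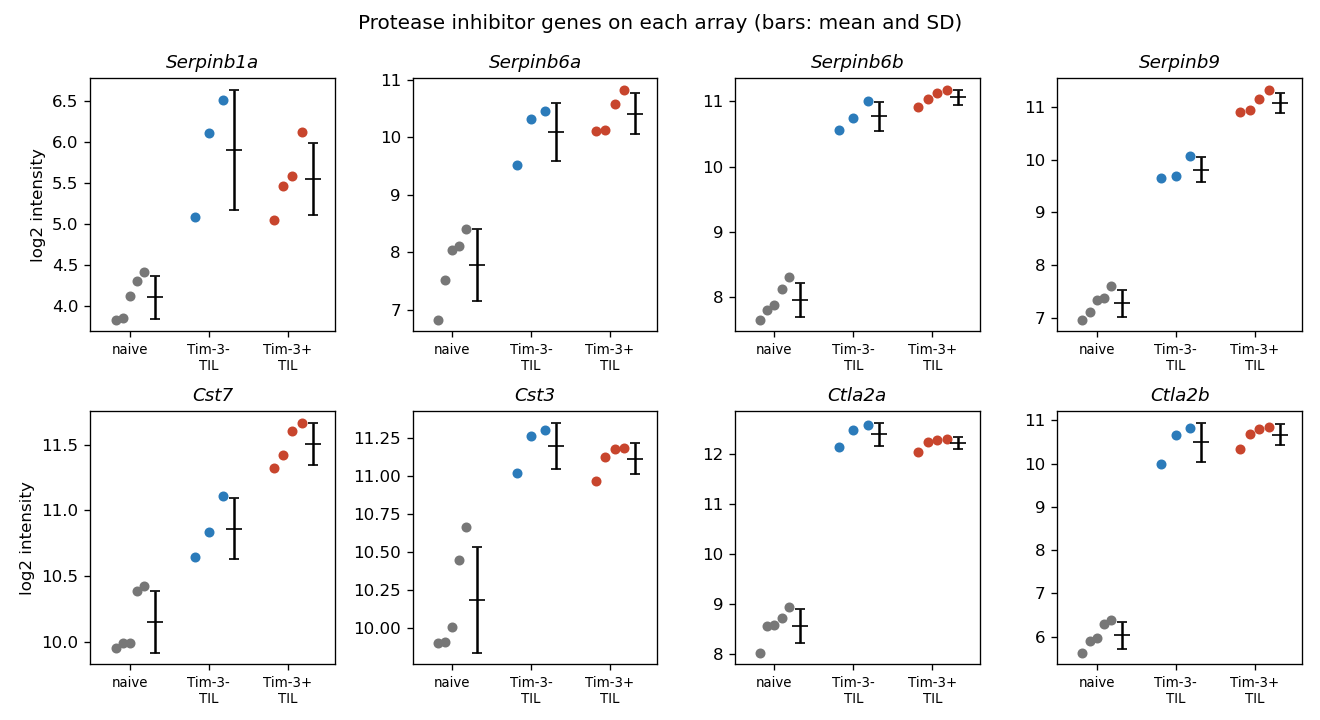
Log2 intensity of each of the 8 measured inhibitors on every array, by group, with the group mean and SD. Naive arrays lie below all TIL arrays in every panel, and Tim-3+ arrays lie wholly above Tim-3- arrays for Serpinb9 and Cst7.

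Some facts of the arrays bear on these values. The CD8 T cell markers were well above the dim level in all groups, with a summed intensity between 28642.3 and 35391.6. The dim level used here is log2 5.71, percentile 40 of the gene means, since the values carry no detection calls. A change against a group below it is at best a lower bound. The arrays were also put into 2 sets that no label names, by the sign of the first principal component of deviations from group means. That component held 35.76% of the variance of these deviations. Such deviations balance within each group, so every group splits this way by construction. Whether the sets are batches was not tested. The sets come from the same deviations that the tests take as spread. P-values within a set or with the sets as a block are therefore no independent support. Set A is made up of replicates 1 and 2 of the naive group and of the Tim-3+ group with replicate 1 of the Tim-3- group, and the remaining 7 arrays form set B. In the sample order of the series, every set A array comes before every set B array. Tim-3- TIL thus have 1 array in set A, which is assumed to vary like the rest. Values within each set are given below for some of the members and comparisons, not for all.

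Promoter windows were read because the members rose together against naive cells. RefSeq (build GRCm38.p6) gave windows of 250 bases before to 50 after the start for 7 of the 8 measured members, all but Serpinb1a. The 4 below belong to the inhibitors the results turn on: the 2 that passed between the TIL groups and the near-identical Ctla2 pair. Each is printed 5′ to 3′ on the gene's strand, from 250 bases before to 20 after the start. Capitals mark matches to 5 motifs, searched on both strands.
Serpinb9 promoter: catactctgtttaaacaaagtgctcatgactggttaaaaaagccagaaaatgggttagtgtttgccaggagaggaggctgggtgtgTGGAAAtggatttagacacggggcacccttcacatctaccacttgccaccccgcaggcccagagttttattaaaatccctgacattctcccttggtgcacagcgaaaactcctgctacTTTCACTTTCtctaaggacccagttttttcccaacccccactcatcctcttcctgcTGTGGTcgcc
Cst7 promoter: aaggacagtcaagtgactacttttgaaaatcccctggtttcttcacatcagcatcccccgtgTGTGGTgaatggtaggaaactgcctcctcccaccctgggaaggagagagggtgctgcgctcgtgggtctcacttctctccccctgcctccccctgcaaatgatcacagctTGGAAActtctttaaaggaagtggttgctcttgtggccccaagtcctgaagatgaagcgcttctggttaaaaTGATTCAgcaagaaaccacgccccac
Ctla2a promoter: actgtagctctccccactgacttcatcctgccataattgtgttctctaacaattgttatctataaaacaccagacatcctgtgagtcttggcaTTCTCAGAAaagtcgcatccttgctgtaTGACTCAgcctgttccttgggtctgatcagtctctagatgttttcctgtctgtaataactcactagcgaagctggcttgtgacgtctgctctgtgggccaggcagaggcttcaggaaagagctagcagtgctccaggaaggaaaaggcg
Ctla2b promoter: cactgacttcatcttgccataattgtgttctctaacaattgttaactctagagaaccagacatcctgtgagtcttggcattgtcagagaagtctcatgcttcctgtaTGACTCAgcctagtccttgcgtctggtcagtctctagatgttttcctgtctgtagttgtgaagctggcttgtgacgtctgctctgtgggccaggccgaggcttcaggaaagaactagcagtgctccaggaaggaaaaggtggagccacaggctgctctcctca

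The Serpinb9 stretch lies at chr13:33004291-33004560 on the plus strand and the Cst7 stretch at chr2:150570165-150570434 on the plus strand. Ctla2a lies at chr13:60936606-60936875 and Ctla2b at chr13:60897428-60897697, both on the minus strand. The motifs were the interferon-factor repeat (GAAA, NN, GAAA), the STAT-type palindrome TTCNNNGAA, the AP-1 site TGANTCA, the RUNX site TGTGGT and the NFAT core TGGAAA. The T-box half-site TCACACC was also searched and matched no member window. Serpinb9 had the interferon-factor repeat on the opposite strand, with its first base at position -46 from the start, which 3.44% of the 32851 promoter windows hold. Ctla2a and Ctla2b both had the AP-1 site, as did Cst7, and 7.81% of all windows hold it. Ctla2a also matched the STAT-type palindrome, found in 8.3% of windows, and Ctla2b did not. Serpinb9 and Cst7 each matched the RUNX and NFAT letters, which are common, at 16.76% and 21.43% of windows. The AP-1 match overlaps no other match in these stretches. The Ctla2a and Ctla2b windows aligned over 278 bases with 256 identical (92.1%). A match is a description of letters, and binding was not measured.

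Serpinb9 encodes the mouse cytosolic inhibitor of granzyme B, and it is the member with the widest step between the TIL groups. Naive arrays read 7.60, 7.37, 7.33, 7.10 and 6.95, Tim-3- arrays 10.08, 9.70 and 9.65, and Tim-3+ arrays 11.33, 11.15, 10.94 and 10.92. The 3 groups form 3 separate bands with no overlap. Tim-3+ cells were 2.42-fold above Tim-3- cells, a log2 change of 1.28 ± 0.16 (95% interval 0.92 to 1.63, limma adjusted p = 0.000127). Against naive cells the change was 2.54 ± 0.16 in Tim-3- (5.82-fold, adjusted p = 2.21e-08) and 3.82 ± 0.14 in Tim-3+ TIL (14.1-fold, adjusted p = 6.4e-11). The step between the TIL groups was 1.16 within set A and 1.25 within set B.

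A second Serpinb9 probe set gave the same order at a different scale. It read 6.41, 6.29, 5.93, 5.17 and 6.19 in naive, 7.80, 7.01 and 7.67 in Tim-3-, and 8.87, 9.06, 9.06 and 9.05 in Tim-3+ arrays. Its groups also stayed apart. Its change between the TIL groups was 1.52 ± 0.26 (adjusted p = 0.0016 over 45037 probe sets), and from naive to Tim-3- TIL it was 1.49 ± 0.25 (adjusted p = 0.000332). The 2 probe sets thus agreed on direction and calls, and differed on how the rise from naive cells divides between the groups.

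Natural killer (NK) cells also make Serpinb9, Cst7 and granzymes, so their markers were read. Of 8 NK cell markers 5 were measured, and Ncr1, Klra8 and Tyrobp, the first a defining receptor, were below the dim level in all groups. The sum of the 5 was 109.8 to 156.3 in naive, 125.0 to 157.6 in Tim-3- and 687.5 to 852.1 in Tim-3+ arrays. Between the TIL groups 3 of the 5 were higher and 0 lower. Fcer1g, an Fc receptor signalling chain, rose by 2.54 ± 0.23 (adjusted p = 5.13e-06) and Styk1, a pseudokinase, by 3.33 ± 0.35 (adjusted p = 2.03e-05). Tyrobp rose by 0.70 ± 0.18 (adjusted p = 0.0204), between means below the dim level. In Tim-3- TIL against naive 1 was higher and 1 lower. Styk1 changed by 1.23 ± 0.33 (adjusted p = 0.0105) and Tyrobp by -0.73 ± 0.175 (adjusted p = 0.00459), both between means below the dim level. In Tim-3+ TIL against naive 2 were higher and 0 lower. Fcer1g rose by 3.14 ± 0.20 (adjusted p = 1.59e-08) and Styk1 by 4.56 ± 0.31 (adjusted p = 2.48e-08), at best lower bounds since both naive means are below the dim level. The part of NK cells in the Serpinb9 and Cst7 values was not tested.

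Serpinb6b, a clade B serpin reported to inhibit granzyme A, was higher in TIL than in naive cells and did not pass the test between the TIL groups. It read 7.66, 7.88, 8.12, 7.81 and 8.31 in naive, 11.0002, 10.57 and 10.74 in Tim-3-, and 10.92, 11.03, 11.14 and 11.17 in Tim-3+ arrays. The TIL groups overlapped, and both lay far above naive arrays. The change was 2.81 ± 0.15 in Tim-3- (7.03-fold, adjusted p = 4.37e-09) and 3.11 ± 0.13 in Tim-3+ TIL (8.62-fold, adjusted p = 2.44e-10). In Tim-3- TIL the change against naive was 3.23 within set A and 2.575 within set B. From Tim-3- to Tim-3+ TIL it was 0.29 ± 0.15 (95% interval -0.037 to 0.62, adjusted p = 0.272).

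Serpinb6a, its paralogue and an inhibitor of cathepsin G, had the widest spread among naive arrays. These read 6.82, 7.51, 8.04, 8.11 and 8.41, Tim-3- arrays 9.52, 10.31 and 10.46, and Tim-3+ arrays 10.11, 10.14, 10.83 and 10.59. In each group the set A arrays were the lowest, and all TIL arrays lay above all naive arrays. The change against naive was 2.32 ± 0.32 in Tim-3- (4.99-fold, adjusted p = 5.55e-05) and 2.64 ± 0.29 in Tim-3+ TIL (6.22-fold, adjusted p = 4.72e-06). From Tim-3- to Tim-3+ TIL it was 0.32 ± 0.33 (95% interval -0.40 to 1.04, adjusted p = 0.652), and the arrays overlapped.

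Serpinb1a, an inhibitor of neutrophil elastase and cathepsin G, was the dimmest member. Naive arrays read 4.30, 4.41, 3.83, 3.86 and 4.13, Tim-3- arrays 5.09, 6.51 and 6.11, and Tim-3+ arrays 5.05, 5.46, 6.12 and 5.59. The naive and Tim-3+ means, 4.11 and 5.55, lay below the dim level, so its rises are at best lower bounds. All TIL arrays were above all naive arrays, and the TIL groups overlapped. The change against naive was 1.80 ± 0.29 in Tim-3- (adjusted p = 0.000197) and 1.45 ± 0.26 in Tim-3+ TIL (adjusted p = 0.000438). In Tim-3- TIL it was 0.73 within set A (adjusted p = 0.0492) and 2.37 within set B (adjusted p = 3.54e-05). In Tim-3+ TIL it was 0.90 within set A and 1.92 within set B. In Tim-3+ against Tim-3- TIL the change was -0.35 ± 0.30 (95% interval -0.99 to 0.29, adjusted p = 0.556). A second probe set gave changes of 1.52 and 1.09 against naive, both past the threshold.

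Cst7 encodes cystatin F, an endolysosomal cystatin of immune cells that inhibits cathepsin C, the enzyme that activates granzymes. It read 10.39, 10.43, 9.997, 9.999 and 9.96 in naive, 11.11, 10.64 and 10.83 in Tim-3-, and 11.66, 11.61, 11.42 and 11.32 in Tim-3+ arrays. As for Serpinb9, the groups formed 3 bands with no overlap, but the steps were smaller. Tim-3+ cells were 1.56-fold above Tim-3- cells, a log2 change of 0.64 ± 0.15 (95% interval 0.31 to 0.97, limma adjusted p = 0.0125). Against naive the change was 0.71 ± 0.15 in Tim-3- (1.63-fold, adjusted p = 0.00178) and 1.35 ± 0.13 in Tim-3+ TIL (2.55-fold, adjusted p = 1.67e-06).

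The call for Cst7 between the TIL groups rests on few arrays. Without Tim-3- replicate 2, its lowest TIL array, the change was 0.53 (adjusted p = 0.0743). Within set A it was 0.53 (adjusted p = 0.0702) and within set B 0.63 (adjusted p = 0.00971).

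Cst3 encodes cystatin C, a secreted cystatin that many cell types make. It read 10.44, 10.66, 10.004, 9.90 and 9.90 in naive, 11.30, 11.02 and 11.26 in Tim-3-, and 11.18, 11.18, 10.96 and 11.12 in Tim-3+ arrays. The TIL groups overlapped, and both lay above naive cells by a modest margin. The change was 1.01 ± 0.17 in Tim-3- (2.02-fold, adjusted p = 0.000288) and 0.93 ± 0.15 in Tim-3+ TIL (1.90-fold, adjusted p = 0.000209). In Tim-3- TIL the change was 0.75 within set A and 1.21 within set B. In Tim-3+ TIL it was 0.62 within set A and 1.11 within set B. In Tim-3+ against Tim-3- TIL it was -0.084 ± 0.18 (95% interval -0.46 to 0.29, adjusted p = 0.845).

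Myeloid cells express Cst3 strongly, so their markers were read beside it. Of 12 macrophage and monocyte markers measured, 10 were below the dim level in all groups, among them Lyz2, Adgre1, C1qa, C1qb and C1qc. Cd68, a lysosomal protein of macrophages and other cells, was above it and rose by 1.45 ± 0.21 in Tim-3- (adjusted p = 7.28e-05) and by 0.63 ± 0.19 in Tim-3+ TIL (adjusted p = 0.0156). Cd14, an endotoxin co-receptor, rose by 1.09 ± 0.17 in Tim-3+ TIL (adjusted p = 0.000149), from and to means below the dim level. Fcgr1, also dim, changed by -0.43 ± 0.11 there (adjusted p = 0.00623). Of the 12, 1 was higher and 0 lower in Tim-3- TIL against naive, and 2 higher and 1 lower in Tim-3+ TIL. The summed intensity of the 12 was 371.7 to 452.2 in naive, 538.9 to 629.4 in Tim-3- and 447.9 to 561.0 in Tim-3+ arrays. Of 10 dendritic cell markers 9 were measured, and Flt3, Xcr1 and Cd209a were below the dim level. Their sum was 607.8 to 912.3 in naive, 1137.4 to 2510.7 in Tim-3- and 832.1 to 1186.8 in Tim-3+ arrays. The dendritic sum was thus higher in Tim-3- TIL, with Cd74, the invariant chain of antigen presentation, 2.80 ± 0.39 above naive (adjusted p = 6.01e-05). Of the 9 dendritic markers, 3 were higher and 1 lower in Tim-3- TIL against naive, and 3 higher and 2 lower in Tim-3+ TIL. Siglech was lower in both, at -0.475 ± 0.13 (adjusted p = 0.0122) and -0.494 ± 0.12 (adjusted p = 0.00441). Zbtb46 was lower in Tim-3+ TIL, at -0.292 ± 0.11 (adjusted p = 0.0489). Of 7 melanoma markers, 2 were higher and 1 lower in Tim-3- TIL than in naive cells, and 4 higher and 1 lower in Tim-3+ TIL. The pigment enzyme genes Tyrp1 and Dct rose by 3.05 ± 0.62 (adjusted p = 0.00145) and 2.24 ± 0.58 (adjusted p = 0.00758) in Tim-3- TIL. In Tim-3+ TIL they rose by 3.66 ± 0.57 (adjusted p = 0.000113) and 2.92 ± 0.53 (adjusted p = 0.000449). Pmel, a melanosome protein gene, fell by 0.88 ± 0.23 in Tim-3- TIL (adjusted p = 0.00896), and Tyr and Mitf were below the dim level in all groups. The sum of the 7 ran from 419.2 to 555.1 in naive, 390.6 to 645.9 in Tim-3- and 300.7 to 1166.7 in Tim-3+ arrays. The part of these cells in the Cst3 values was not tested.

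Ctla2a and Ctla2b, whose proteins resemble cathepsin propeptides, had the highest rises of the members in Tim-3- TIL. Ctla2a read 8.95, 8.72, 8.57, 8.59 and 8.03 in naive, 12.14, 12.58 and 12.48 in Tim-3-, and 12.04, 12.29, 12.30 and 12.25 in Tim-3+ arrays. Its change against naive was 3.83 ± 0.17 in Tim-3- (14.2-fold, adjusted p = 1.05e-09) and 3.65 ± 0.16 in Tim-3+ TIL (12.5-fold, adjusted p = 2.52e-10). In Tim-3- TIL it was 3.30 within set A and 4.13 within set B. TIL arrays of the 2 groups overlapped, and the change between them was -0.18 ± 0.18 (95% interval -0.57 to 0.21, adjusted p = 0.634).

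Ctla2b read 6.38, 6.30, 5.89, 5.95 and 5.62 in naive, 9.99, 10.83 and 10.67 in Tim-3-, and 10.33, 10.81, 10.85 and 10.69 in Tim-3+ arrays. The lowest array of each TIL group was its replicate 1, and the TIL groups overlapped. Against naive the change was 4.47 ± 0.21 in Tim-3- (22.1-fold, adjusted p = 1.62e-09) and 4.64 ± 0.19 in Tim-3+ TIL (25.0-fold, adjusted p = 1.47e-10). In Tim-3- TIL it was 3.65 within set A and 4.93 within set B. In Tim-3+ against Tim-3- TIL it was 0.18 ± 0.22 (95% interval -0.29 to 0.65, adjusted p = 0.716). A probe set that names both genes read 7.38 ± 0.36 (SD, n = 5), 11.60 ± 0.39 (n = 3) and 11.50 ± 0.21 (n = 4). The printed promoters of the pair are near-identical, and signal shared between their transcripts is possible, so the values of each are uncertain as values of that gene alone.

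Ctla2a is also known from mast cells, whose markers were read too. Of 6 mast cell markers, Cpa3, Mcpt4, Tpsb2 and Fcer1a were below the dim level in all groups. The sum of the 6 was 148.7 to 171.4 in naive, 445.3 to 586.7 in Tim-3- and 240.4 to 417.6 in Tim-3+ arrays. Kit, a growth factor receptor on that list, rose by 5.10 ± 0.32 in Tim-3- (adjusted p = 2.22e-08) and 4.07 ± 0.29 in Tim-3+ TIL (adjusted p = 4.57e-08), at best lower bounds since its naive mean of 3.42 is below the dim level. The part of mast cells in the Ctla2 values was not tested.

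The 6 markers of CD4 and regulatory T cells were read too, and their sum rose against naive, though not every marker moved with the members. The sum of the 6 was 442.5 to 596.0 in naive, 2893.3 to 3318.3 in Tim-3- and 2442.0 to 3303.8 in Tim-3+ arrays, and Cd40lg was below the dim level in all groups. In Tim-3- TIL 4 of 6 were higher. Il2ra, an IL-2 receptor chain, rose by 4.26 ± 0.26 (adjusted p = 1.71e-08) and Ikzf2, a transcription factor, by 3.64 ± 0.21 (adjusted p = 1.09e-08). Foxp3, the defining factor of regulatory T cells, rose by 0.85 ± 0.12 (adjusted p = 7.75e-05) and Cd4 by 0.83 ± 0.13 (adjusted p = 0.000148). In Tim-3+ TIL against naive 3 were higher and 1 lower. Il2ra rose by 4.41 ± 0.24 (adjusted p = 2.16e-09), Ikzf2 by 3.54 ± 0.19 (adjusted p = 2.6e-09) and Cd4 by 0.99 ± 0.12 (adjusted p = 8.53e-06). Ccr4 changed by -1.21 ± 0.31 (adjusted p = 0.00562) and Foxp3 by -0.16 ± 0.11 (adjusted p = 0.291). The part of these cells in the values of the members was not tested.

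**Figure D2:**
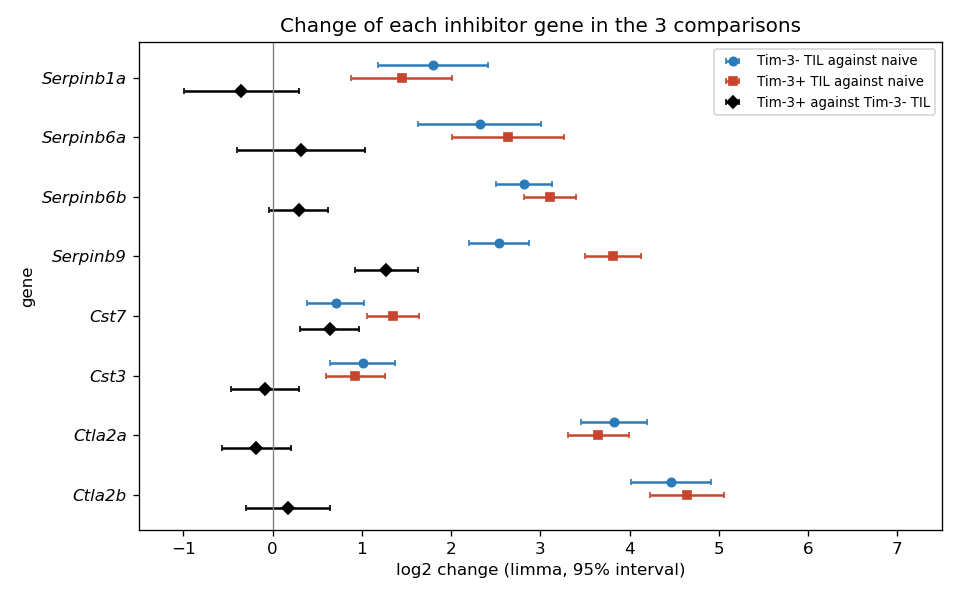
Log2 change with its 95% interval from the limma fit for each of the 8 measured inhibitors, in the 3 comparisons. All intervals against naive lie above 0, and between the TIL groups only those of Serpinb9 (0.92 to 1.63) and Cst7 (0.31 to 0.97) do.

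Most clade B serpins named here sit together on chromosome 13. In the RefSeq order of GRCm38.p6, 16 protein-coding Serpinb genes run from Serpinb1a to Serpinb6a, and 11 of them were measured. Of these, 5 were above the dim level in some group: Serpinb1a, Serpinb6b, Serpinb9, Serpinb9b and Serpinb6a. The other 6, Serpinb1b, Serpinb9c, Serpinb9d, Serpinb9g, Serpinb6e and Serpinb6c, were below it in all groups. A probe set's brightness also depends on its affinity, so these levels rank no gene against another. Paralogues of this cluster are alike in sequence, so signal shared between their probe sets is possible.

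Serpinb9b, the gene next to Serpinb9 in that order and its close paralogue, had the largest log2 change among the measured cluster genes in both comparisons with Tim-3+ TIL, and ranked below Serpinb6b and Serpinb9 in Tim-3- TIL against naive. Its means were 3.96 ± 0.57 (SD, n = 5) in naive, 6.35 ± 0.58 (n = 3) in Tim-3- and 9.89 ± 0.31 (n = 4) in Tim-3+ cells. The rise between the TIL groups was 3.54 ± 0.32 (adjusted p = 5.22e-06), and Tim-3+ arrays, from 9.52 to 10.25, lay above Tim-3- arrays, from 5.71 to 6.82. Against naive it was 2.39 ± 0.31 in Tim-3- (adjusted p = 3.01e-05) and 5.93 ± 0.28 in Tim-3+ TIL (adjusted p = 6.15e-10), at best lower bounds. In Tim-3- TIL it was 1.56 within set A and 2.84 within set B.

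Serpinb1b was also called between the TIL groups, at 0.82 ± 0.23 (adjusted p = 0.0286). Its arrays overlapped, its means were all below the dim level, and the call was lost within set A (adjusted p = 0.0689) and within set B (adjusted p = 0.172). It was also lost without Tim-3+ replicate 2 (adjusted p = 0.0738), Tim-3+ replicate 3 (adjusted p = 0.0768), Tim-3- replicate 1 (adjusted p = 0.0734) or Tim-3- replicate 2 (adjusted p = 0.159).

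**Figure D3:**
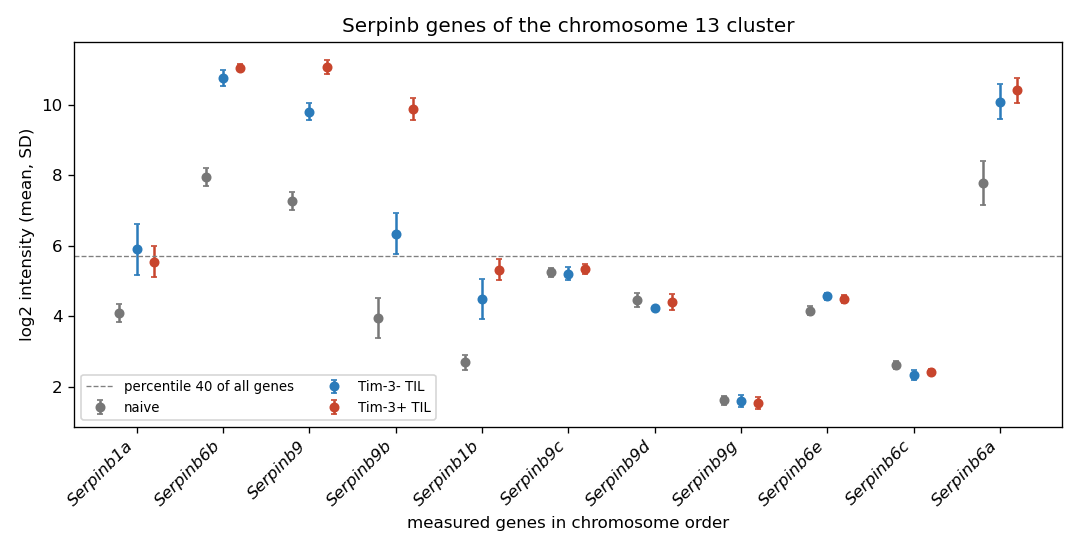
Mean log2 intensity by group, with the SD, for the 11 measured Serpinb genes of the chromosome 13 cluster, in RefSeq gene order, with the dim level of 5.71 as a line. Serpinb1a, Serpinb6b, Serpinb9, Serpinb9b and Serpinb6a rise above the line in some group.

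The rest of the inhibitor families mostly did not pass. Of 23 other clade B serpins 14 were measured, and between the TIL groups 2 were higher, Serpinb9b and Serpinb1b. Of 13 measured clade A serpins, the relatives of Serpina3g, 0 were called between the TIL groups by limma (1 at an unadjusted p below 0.05), and 2 and 1 were lower than naive in Tim-3- and Tim-3+ TIL. All 13 lay below the dim level, and the lower one in both was Serpina5, at -0.54 ± 0.13 (adjusted p = 0.00471) and -0.40 ± 0.12 (adjusted p = 0.0145). Of 8 measured serpins of other clades, 3 were higher and 1 lower in Tim-3- TIL against naive. Serpinf1, which encodes the secreted protein PEDF, rose by 1.04 ± 0.21 (adjusted p = 0.00153, but 0.0626 within set B), and Serpini1, which encodes neuroserpin, fell by 1.28 ± 0.15 on the log2 scale (adjusted p = 9.19e-06). Serpinc1, which encodes antithrombin, was the 1 called between the TIL groups, lower in Tim-3+ cells at -0.87 ± 0.17 (adjusted p = 0.00314, but 0.0866 within set B).

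Among 10 measured cystatins and stefins that are no members, 2 were higher and 1 lower against naive in each TIL group, and 1 was lower in Tim-3+ than in Tim-3- TIL. That 1 was Stfa3, a stefin A gene, which fell by 2.16 ± 0.32 on the log2 scale (adjusted p = 0.000427) after a rise of 1.76 ± 0.31 in Tim-3- TIL against naive (adjusted p = 0.00045). Its means of 3.52, 5.28 and 3.12 in naive, Tim-3- and Tim-3+ cells were all below the dim level. Cstb encodes stefin B, a cytosolic cathepsin inhibitor. It rose by 0.31 ± 0.091 in Tim-3- (adjusted p = 0.0167, but 0.0727 without Tim-3- replicate 1, 0.112 within set A and 0.0656 with the replicate block) and by 0.42 ± 0.084 in Tim-3+ TIL (adjusted p = 0.001).

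The genes of granzymes, cathepsins and granule machinery, not all of them targets of these inhibitors, changed unevenly. Of 10 granzymes, 7 were higher and 1 lower in Tim-3+ than in Tim-3- TIL, with a median log2 change of 2.71. Gzmf rose by 7.37 ± 0.19 (adjusted p = 4.74e-11), at best a lower bound from a mean of 4.54. Against naive 7 were higher in Tim-3- and 8 in Tim-3+ TIL. Gzmk rose by 5.71 ± 0.20 in Tim-3- TIL (adjusted p = 6.62e-11), also from a mean below the dim level. Of 15 cathepsins and legumain, 2 were higher and 3 lower between the TIL groups, with a median of -0.19. Ctsz fell by 1.34 ± 0.20 on the log2 scale (adjusted p = 0.000538) and Ctsd rose by 0.98 ± 0.18 (adjusted p = 0.0021). Against naive 4 were higher and 2 lower in Tim-3-, and 4 were higher and 4 lower in Tim-3+ TIL. Of 10 genes of the granule machinery, 1 was higher and 2 lower between the TIL groups. Prf1, which encodes perforin, changed by 0.099 ± 0.18 there (adjusted p = 0.821). Against naive 6 of the 10 were higher and 1 lower in Tim-3-, and 6 higher and 2 lower in Tim-3+ TIL. Prf1 was lower than naive in both, at -0.595 ± 0.17 (adjusted p = 0.0162) and -0.496 ± 0.16 (adjusted p = 0.0226).

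Inhibitors were then set beside a protease of their kind in 3 pairs, chosen after the values were seen: Serpinb9 with Gzmb, Cst7 with Ctsc and Ctla2a with Ctsl. For each pair the changes of inhibitor and protease were compared over arrays in 3 comparisons, with an exact two-sided permutation test for each of the 9 differences. Probe sets differ in how RNA maps to signal, so these are differences of changes on 2 probe sets, not ratios of molecules. In all 9 the groups did not overlap, so each p is the smallest the design allows: 0.0571 between the TIL groups, 0.0357 for Tim-3- and 0.0159 for Tim-3+ TIL against naive. Adjusted over the 9 tests these are 0.0571, 0.0536 and 0.0476. Which of them fall below 0.05 thus follows from the group sizes and does not rank the comparisons.

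The log2 change of Serpinb9 was smaller than that of Gzmb, the gene of granzyme B, in all 3 comparisons. Only Tim-3+ TIL against naive passed the adjusted permutation test, an outcome set by the group sizes. Tim-3+ against Tim-3- TIL gave 1.28 and 2.67, a difference of -1.39 ± 0.49. Against naive the differences were -1.87 ± 0.57 in Tim-3- and -3.26 ± 0.32 in Tim-3+ TIL. Within the sets the difference between the TIL groups was -2.12 for set A arrays and -1.10 for set B arrays. It ranged from -1.80 to -0.96 when 1 array was left out.

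Ctla2a rose against naive while Ctsl, the gene of cathepsin L, fell in Tim-3+ TIL (limma adjusted p = 4e-05). The changes were 3.65 and -1.45 there, a difference of 5.10 ± 0.30. In Tim-3- TIL the changes were 3.83 and -0.36, a difference of 4.19 ± 0.27. From Tim-3- to Tim-3+ TIL they were -0.18 and -1.09, a difference of 0.91 ± 0.21.

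Cst7 and Ctsc, the gene of cathepsin C, give a reading that hangs on the Ctsc probe set. With the brightest one, Ctsc changed by -0.47 ± 0.097 in Tim-3- TIL against naive (limma adjusted p = 0.00148), and the difference from Cst7 was 1.18 ± 0.11. With its most variable probe set Ctsc changed by 1.03 ± 0.20 instead (limma adjusted p = 0.000843), above the 0.71 of Cst7. The difference then turned to -0.32 in Tim-3- and -0.51 in Tim-3+ TIL against naive, so the pair has no settled direction there. Between the TIL groups Ctsc rose by 1.01 ± 0.10 with the brightest and 0.83 ± 0.21 with the most variable probe set, and the difference of Cst7 from the former was -0.37 ± 0.10.

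**Figure D4:**
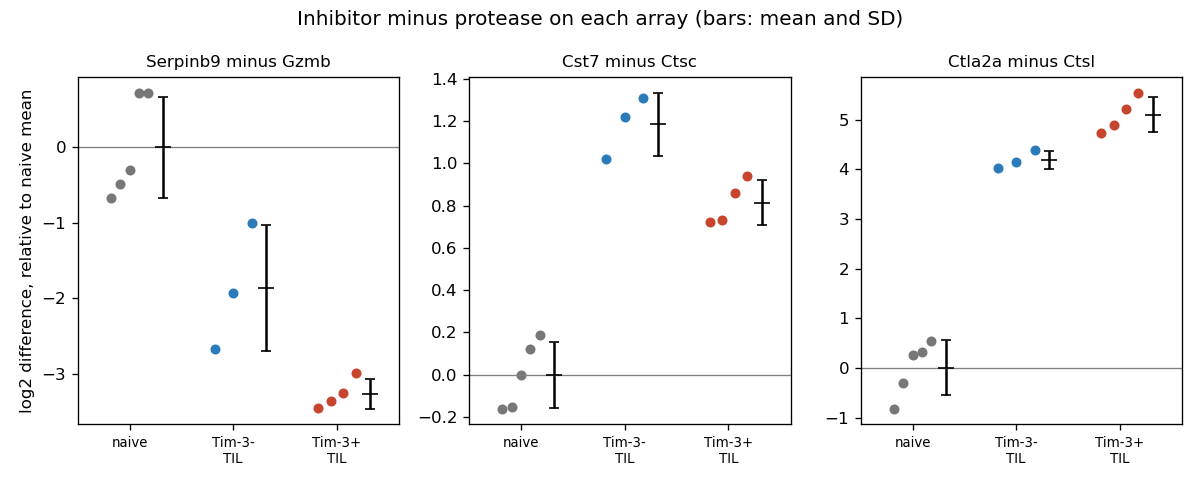
Inhibitor minus protease log2 intensity on every array, relative to the naive mean, for Serpinb9 and Gzmb, Cst7 and Ctsc, and Ctla2a and Ctsl. Tim-3+ arrays lie from -3.45 to -2.99 for Serpinb9 and Gzmb and from 4.74 to 5.54 for Ctla2a and Ctsl, and the Cst7 panel uses the brightest Ctsc probe set.

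Likeness in profile was measured between members and to other genes. After each gene's own mean was removed, the closest pair over the 12 arrays was Cst7 and Cst3, with a root-mean-square difference of 0.3 log2 units. Ctla2a and Ctla2b followed at 0.456 and Serpinb6a and Serpinb6b at 0.469. Small changes make small differences, so this measure favours members with small steps.

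Outside the family, 10909 genes above the dim level were searched for the closest profiles. For Serpinb9 these were Cdkn3 (0.202), Tctex1d2 (0.207) and St14 (0.208). For Cst7 they were Cnot9 (0.1), Tmem30a (0.111) and AW112010 (0.115). Serpinb6b was closest to Klf10 (0.151), Ybx3 (0.181) and Rgs2 (0.203), and Serpinb6a to Ciapin1 (0.257), Rap2a (0.266) and Il2rb (0.301). Ctla2a was closest to Tnfrsf4 (0.285), Coprs (0.286) and Gpr160 (0.305), and Ctla2b to Il1r2 (0.244), Crem (0.282) and Dusp14 (0.285). The nearest to Serpinb1a were Cpeb2 (0.231), Abcb1a (0.26) and Bcl2l1 (0.271), and to Cst3 they were Prdx2 (0.142), Dbi (0.156) and Cdk2ap1 (0.161). All values are root-mean-square differences of log2 intensity over 12 arrays, which share the group structure.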

How the data were processed

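The authors deposited 1 linear intensity per probe set and array. RMA and the affy package are named in the submitters' processing notes, while versions, the return to a linear scale and joint normalization were not given in the sources used here. Values were turned into log2 of the deposited intensity. Of 45101 probe sets, 64 controls were left out, 34945 named 1 gene, 932 several and 9160 none. A gene took its probe set with the highest mean, which gave 18193 genes, and 9010 had more than 1. Array medians lay between 58.7 and 63.0, and the number of arrays limits the precision.

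A limma fit (3.58.1, R 4.3.3) of 3 group means over 12 arrays gave each contrast, with default moderation, two-sided tests and Benjamini-Hochberg adjustment. No dim genes were removed. Python 3.11.15, numpy 2.4.6, pandas 2.3.3, scipy 1.17.1, matplotlib 3.10.9 and Biopython 1.88 did the rest. The array sets were read from the first principal component of deviations from group means. The naming rule took all measured members, up to 3 genes per related or marker list and comparison by adjusted p below 0.05, and the 3 closest profiles, and the text leaves some of the list genes out. Prf1 and the proteases of the pairs were chosen after their values were seen. Members, lists and alternatives were chosen with earlier results of these data known.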

Additional observations from a re-analysis of the deposited data

How the results depend on the processing

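Against naive cells, all 201 alternatives over the members kept direction and call in Tim-3- TIL, and all 201 did in Tim-3+ TIL. For members with a single probe set naming only that gene, alternatives that change the probe set return the main change. Not all of the 201 could therefore differ. A filter on dim genes leaves out Serpinb1a, so 7 members were then higher. Between the TIL groups, 195 of 201 kept both. Members higher numbered 1 within set A and from 1 to 2 when 1 array was left out, since Cst7 was lost. Genes past the threshold numbered 2463, 1590 within set A, 3348 with the sets as a block and from 1666 to 2447 without 1 array. Directions that had not passed turned within set A for Serpinb1a (0.16), Serpinb6b (-0.025) and Ctla2a (0.027), and for Ctla2b without Tim-3- replicate 1 (-0.077 to 0.34 over the arrays left out). Ctsc in Tim-3- TIL against naive turned to 0.081 with the mean of its probe sets and to 1.03 with the most variable one. The cause was not tested.

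Replicate numbers were not taken as pairs: deviations of equally numbered Tim-3- and Tim-3+ arrays correlated at 0.413, -0.131 and 0.268. Each Tim-3- array correlated best with a Tim-3+ array of its own set. This was 0.413 for replicate 1 with 1, 0.278 for replicate 2 with 3 and 0.276 for replicate 3 with 4. The sets were made from the same deviations, so a higher correlation within a set is largely built in. Pairing under other numbers was not tested. With the replicate block, 2750, 6415 and 7681 genes passed between the TIL groups, in Tim-3- and in Tim-3+ TIL against naive, with 2, 8 and 8 members higher and no member's call changed. The alternatives for genes that are no members, and those for the pairs, were chosen after seeing the data. With the most variable probe sets Cst7 minus Ctsc turned to -0.32 in Tim-3- and -0.51 in Tim-3+ TIL against naive. The other pair values kept direction within each set, without 1 array and with other probe sets.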
